A study of Mus musculus with 62 samples.

Results

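A set of 9 genes of myelin and mature oligodendrocytes (Mbp, Mog, Mag, Mobp, Cnp, Cldn11, Opalin, Mal and Ugt8a) were followed across 3 brain regions of the mouse. They were chosen by symbol, through the Ensembl identifiers of the deposited counts, and not by a rule on their values. Earlier results of these data were known when they were chosen. All 9 were found, of the 12483 genes listed in either count table. The 62 RNA-seq libraries came from punches of frozen brain of 26 individual C57BL/6J mice, killed at ZT6 (6 h after lights on) about 4 weeks after a circadian rhythm disruption (CRD) or control light schedule. The prefrontal cortex (PFC) gave 17 libraries, the nucleus accumbens (NAc) 26 and the suprachiasmatic nucleus (SCN) 19. For the sequenced tissue the study's methods name exposure in adolescence, while the labels' protocol also names exposure of adults, and the study used both sexes. Region and mouse number (such as J1141) are all that the labels give of a library, without its light schedule or sex, so neither was compared and each region pools them.

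Oligodendrocytes wrap axons in myelin, a compacted, lipid-rich membrane that speeds conduction. They arise from precursors that divide in the adult brain, pass through a newly formed stage and then switch on myelin genes together under the transcription factors Sox10 and Myrf. Mbp holds the cytoplasmic faces of the membrane together and Mobp is another protein of compact myelin. Mal is a proteolipid that sorts membrane cargo, and Cldn11 forms the tight junctions of the sheath. Mag is an adhesion protein of the membrane that faces the axon, while Mog and Opalin are membrane proteins of the oligodendrocyte surface. Cnp is a phosphodiesterase of non-compacted myelin and Ugt8a makes galactocerebroside, a main myelin lipid. PFC is gray matter with few myelinated fibers, NAc is crossed by fiber bundles, and SCN lies directly on the optic chiasm, a myelinated tract.

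Each gene is protein coding, and they lie on 8 chromosomes of GRCm38 in the GENCODE M21 annotation. Mog (ENSMUSG00000076439) spans chromosome 17 from 37010743 to 37023398, Mag (ENSMUSG00000036634) chromosome 7 from 30899176 to 30914873, and Mobp (ENSMUSG00000032517) chromosome 9 from 120149707 to 120181484. Cnp (ENSMUSG00000006782) spans chromosome 11 from 100574904 to 100591729, Opalin (ENSMUSG00000050121) chromosome 19 from 41061710 to 41077113, and Mal (ENSMUSG00000027375) chromosome 2 from 127633226 to 127656695. Cldn11 (ENSMUSG00000037625) lies on chromosome 3 from 31149920 to 31164324 and Ugt8a (ENSMUSG00000032854) on the same chromosome from 125865271 to 125938619. Mbp has the identifier ENSMUSG00000041607, and its counts include any reads from the longer Golli transcripts of the same locus.

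Because these genes are known to be switched on together, the 250 bases before each RefSeq start (GRCm38.p6) were searched for short motifs of oligodendrocyte factors, on both strands, in the 8 members with an entry. ACAAAG, the core of sites bound by SOX proteins, was found in 4 of the 8 (Cnp, Mag, Mobp and Opalin) and in 16.5% of all 32851 windows of the same length. CTGGCAC or CTGGTAC, the core bound by Myrf, was found in 3 of the 8 (Cnp, Mag and Mog) and in 5.93% of all windows. CAGCTG, an E-box of basic helix-loop-helix factors, was found in 0 of the 8 and in 13.0% of all windows. A member counted if any of its windows held the motif, and Mag has several windows. The shares of all windows count each window singly, so the units differ. The 4 sequences below are those with the most matches to the SOX core (Mobp, 6 matches), with both cores (Mag and Cnp) and with the Myrf core alone (Mog). They are printed 5′ to 3′ on the strand of the gene, with the matches to either core, or to its reverse complement, in capitals, and stop where the first annotated exon begins.
Mobp, chr9:120149492-120149706, plus strand: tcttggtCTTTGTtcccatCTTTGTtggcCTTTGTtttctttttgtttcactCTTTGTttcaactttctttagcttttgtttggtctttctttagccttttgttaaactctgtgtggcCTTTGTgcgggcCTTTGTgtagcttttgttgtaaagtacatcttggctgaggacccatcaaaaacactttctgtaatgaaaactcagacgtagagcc
Mag, chr7:30914874-30915113, minus strand: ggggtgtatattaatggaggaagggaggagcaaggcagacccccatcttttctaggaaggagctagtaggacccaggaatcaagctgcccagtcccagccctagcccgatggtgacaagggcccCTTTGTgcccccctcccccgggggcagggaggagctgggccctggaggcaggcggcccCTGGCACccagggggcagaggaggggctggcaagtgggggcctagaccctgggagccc
Cnp, chr11:100574689-100574903, plus strand: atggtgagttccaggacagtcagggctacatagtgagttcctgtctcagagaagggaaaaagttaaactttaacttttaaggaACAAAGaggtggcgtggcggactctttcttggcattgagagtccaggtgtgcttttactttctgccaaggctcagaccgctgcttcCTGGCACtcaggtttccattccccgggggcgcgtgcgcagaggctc
Mog, chr17:37023399-37023648, minus strand: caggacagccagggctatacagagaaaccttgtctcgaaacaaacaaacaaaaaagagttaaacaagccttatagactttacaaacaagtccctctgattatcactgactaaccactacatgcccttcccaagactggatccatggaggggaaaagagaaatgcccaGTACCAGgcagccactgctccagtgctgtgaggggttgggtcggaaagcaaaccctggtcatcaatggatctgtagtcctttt
A match describes these letters and is not evidence of binding.

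Total counts per library were 31216225 to 50333579 in PFC, 28879724 to 60009482 in NAc and 16496666 to 35389742 in SCN. The 2 mitochondrial ribosomal RNAs mt-Rnr1 and mt-Rnr2 took 42.0 to 59.1% of the counts in PFC, 39.0 to 69.3% in NAc and 20.5 to 51.6% in SCN. Region markers followed the labels, but cortical markers varied widely among NAc libraries, and some NAc punches held far more of them than others. The part of cortical tissue in NAc punches was not tested. The summed level of 8 striatal projection neuron genes was 1255 to 3115 CPM (counts relative to the TMM-scaled library total, as edgeR gives them) in NAc and 43.7 to 119 CPM in PFC, and that of 7 cortical glutamatergic neuron genes was 796 to 939 CPM in PFC and 11.6 to 447 CPM in NAc. In SCN, 9 SCN neuron genes summed to 89.2 to 463 CPM, and the striatal genes present reached 664 CPM in the highest library. SCN J1165 held 1403 counts of Xist, against 18 and 23 in the PFC and NAc libraries of the same mouse number, so the libraries under this number did not match each other, and the SCN levels, spread and correlations are also given without it. SCN counts form a table of their own with their own scaling, and SCN levels were placed beside those of PFC and NAc without a test.

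Myelin gene levels were lowest in PFC, several-fold higher in NAc and most variable in SCN. The 9 genes summed to 120 to 333 CPM in PFC (median 213 CPM). Their sum in NAc was 555 to 1126 CPM (median 782 CPM), and in SCN it was 348 to 2328 CPM (median 919 CPM). The highest library thus exceeded the lowest 2.78-fold in PFC, 2.03-fold in NAc and 6.69-fold in SCN. In bulk tissue, fewer oligodendrocytes and less of each RNA per oligodendrocyte cannot be told apart.

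Mbp was 57.3 to 167 CPM in PFC (median 104 CPM), 236 to 517 CPM in NAc (median 356 CPM) and from 161 CPM upward in SCN (median 434 CPM), where the highest library stood 7.23-fold above the lowest. Mobp was 8.60 to 38.9 CPM in PFC (median 23.3 CPM), 42.2 to 200 CPM in NAc (median 121 CPM) and 36.2 to 426 CPM in SCN (median 160 CPM). For both genes of compact myelin the NAc and PFC libraries did not overlap, and SCN reached from levels seen in PFC to above the highest NAc library. Mal was 15.8 to 40.4 CPM in PFC (median 26.6 CPM), 84.3 to 158 CPM in NAc (median 112 CPM) and 33.9 to 216 CPM in SCN (median 85.3 CPM). Cldn11 was 4.61 to 11.4 CPM in PFC (median 6.68 CPM), 20.1 to 42.8 CPM in NAc (median 27.9 CPM) and 9.94 to 72.6 CPM in SCN (median 30.9 CPM). Mal and Cldn11 were each below the highest PFC library in 2 of the 19 SCN libraries and above the highest NAc library in 5.

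Mag, the adhesion protein facing the axon, was 4.61 to 13.3 CPM in PFC (median 8.21 CPM), 20.3 to 50.4 CPM in NAc (median 37.3 CPM) and 10.1 to 89.4 CPM in SCN (median 37.6 CPM). Mog was 2.58 to 7.30 CPM in PFC (median 3.37 CPM), 11.4 to 26.4 CPM in NAc (median 16.1 CPM) and 5.74 to 46.8 CPM in SCN (median 14.7 CPM). Opalin, the least abundant of the 9, was 1.01 to 3.48 CPM in PFC (median 1.87 CPM), 4.99 to 11.8 CPM in NAc (median 7.58 CPM) and 3.42 to 14.4 CPM in SCN (median 7.99 CPM). Its PFC values rest on 31 to 165 counts per library, so they carry more counting error than the others. Of the enzymes, Cnp was 19.4 to 38.8 CPM in PFC (median 32.2 CPM), 68.3 to 146 CPM in NAc (median 100.3 CPM) and 73.4 to 261 CPM in SCN (median 121 CPM). Ugt8a was 4.85 to 13.2 CPM in PFC (median 8.25 CPM), 18.8 to 37.9 CPM in NAc (median 27.4 CPM) and 11.4 to 75.7 CPM in SCN (median 31.4 CPM). Cnp was the only member of the 9 with no SCN library below the highest PFC library.

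**Figure D1:**
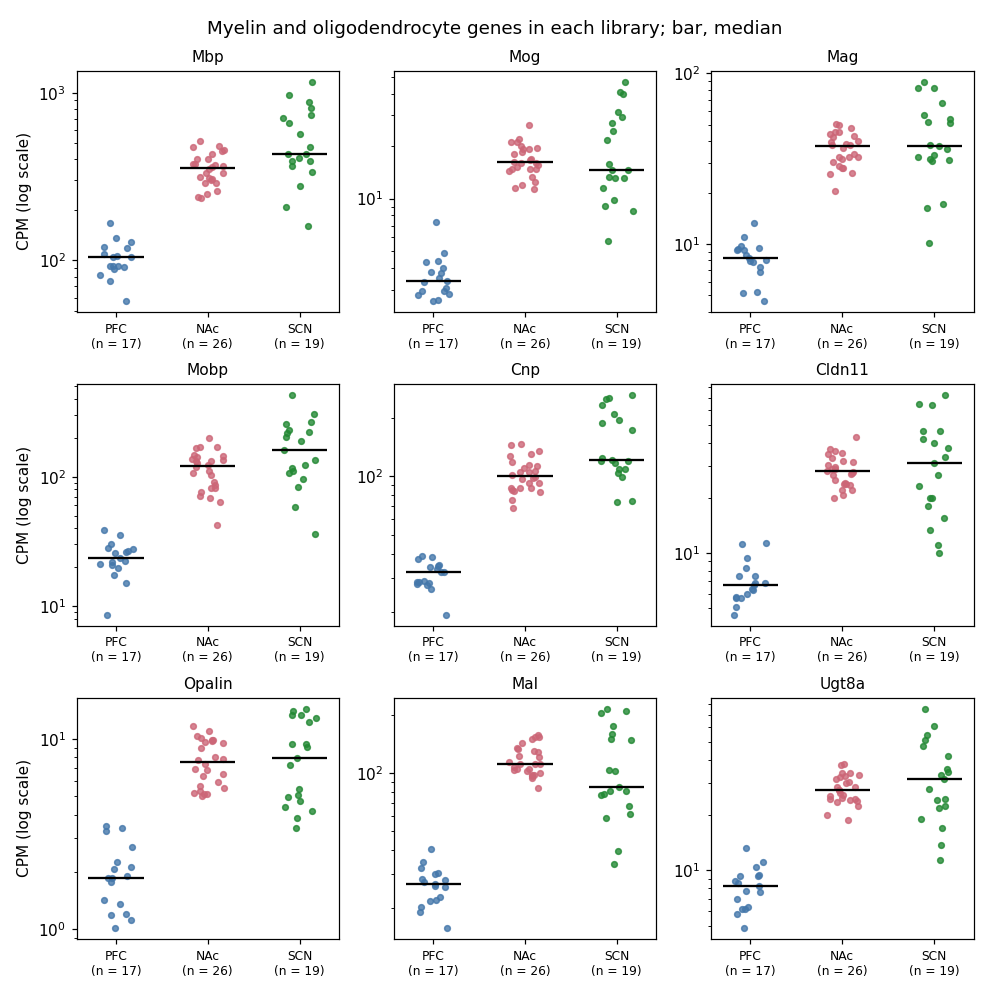
Level of each of the 9 genes in CPM (log axis) in every library of PFC (n = 17), NAc (n = 26) and SCN (n = 19), with 1 point per library, random sideways offsets and a bar at the median. NAc points lie above all PFC points for every gene, and SCN points spread over the widest range.

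Per kilobase of exon, the order of the genes differed little between regions. Exon length here takes in every annotated exon of a gene (8469 bases for Mbp, 6849 for Mobp and 2778 for Mal). A gene read mainly from shorter transcripts is understated, so the order between genes depends on this length. Median levels in PFC ran from Mbp (12.3 CPM per kb) through Mal (9.58), Cnp (8.84), Cldn11 (3.57), Mobp (3.41), Mag (2.02), Mog (1.98) and Ugt8a (1.82) to Opalin (0.634 CPM per kb). Neighbors in that order did not separate beyond the spread between libraries for Mal and Cnp (Mal higher in 13 of 17 libraries), Cldn11 and Mobp (11 of 17) and Mag and Mog (7 of 17). NAc medians ran from Mbp (42.0 CPM per kb) and Mal (40.2), which could not be ordered (Mbp higher in 12 of 26 libraries), through Cnp (27.6), Mobp (17.7), Cldn11 (14.9), Mog (9.47), Mag (9.17) and Ugt8a (6.05) to Opalin (2.57 CPM per kb). Mobp and Cldn11, and Mog and Mag, were again close, with the same order in 16 of 26 libraries for each pair. SCN medians ran from Mbp (51.2 CPM per kb) through Cnp (33.3), Mal (30.7), Mobp (23.3), Cldn11 (16.5), Mag (9.22), Mog (8.60) and Ugt8a (6.91) to Opalin (2.71 CPM per kb), with Cnp above Mal in 12 of 19 libraries and Mag above Mog in 6 of 19.

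All 9 genes were called higher in NAc than in PFC, where a call needs a fold change of 1.2 or more and an adjusted p under 0.05. Across the 11569 genes tested, 23.7% were called higher in NAc and 21.7% lower, and the median log2 fold change of all genes was 0.02. For each of the 9, NAc exceeded PFC in 17 of 17 mice with both regions, and the lowest NAc library lay above the highest PFC library. How many of all genes met either condition was not counted. The median log2 fold change of the 9 was 2.0. Adjusted p-values are from edgeR's quasi-likelihood test over all genes, in a fit of all 26 NAc and 17 PFC libraries that ignores the pairing by mouse. With the mouse as a block in the 17 mice, the same test gave the 9 genes adjusted p-values from 5.2e-15 (Mal) to 2.8e-10 (Mobp).

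The largest difference was that of Mobp, with a log2 fold change of 2.27 ± 0.16 (SE, 4.83-fold, adjusted p = 6.6e-17). Mog (2.19 ± 0.11, 4.57-fold, adjusted p = 6.4e-22), Mal (2.15 ± 0.09, 4.45-fold, adjusted p = 1.5e-24) and Mag (2.14 ± 0.12, 4.40-fold, adjusted p = 2.8e-21) were close to it. Cldn11 (2.0 ± 0.10, 4.00-fold, adjusted p = 6.8e-22) and Opalin (1.95 ± 0.15, 3.87-fold, adjusted p = 1.0e-15) were in the middle. Mbp (1.78 ± 0.11, 3.43-fold, adjusted p = 2.0e-19), Ugt8a (1.76 ± 0.10, 3.40-fold, adjusted p = 1.5e-20) and Cnp (1.73 ± 0.09, 3.31-fold, adjusted p = 2.4e-22) differed least.

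The genes did not differ between regions by an equal amount within a mouse. The NAc to PFC log2 difference of Cnp was smaller than the mean of the other 8 genes by 0.38 ± 0.24 (SD over 17 mice) and exceeded it in 1 mouse. That of Mbp was 0.29 ± 0.19 smaller and likewise exceeded it in 1 of 17 mice. Mal was above the mean of the others in 16 of 17 mice, by 0.23 ± 0.19, and Mog in 14 of 17, by 0.26 ± 0.37. For Mobp the ratio of NAc to PFC within a mouse ran from 1.81 (J1019) to 13.8 (J1141), the widest range of the 9. PFC J1141 was the lowest PFC library for 7 of the 9 genes, and PFC J1178, the highest for 7, gave the lowest NAc to PFC ratio for 6.

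Other genes of mature myelin, from a list that does not hold the 9, were mostly higher in NAc as well. Of 38 in the table, 34 were called higher in NAc, 2 lower and 2 were not called, with a median log2 fold change of 1.24. Anln, a cytoskeletal protein of myelin septin filaments, was higher by 2.22 ± 0.17 (SE) on the log2 scale. The exceptions were Tppp, a microtubule-polymerizing protein (-0.81 ± 0.06), and Enpp2, the lysophospholipase D autotaxin (-0.50 ± 0.07). All 9 oligodendrocyte transcription factors in the table were called higher in NAc (8 with the mouse as a block), with a median of 1.32, led by St18 (2.86 ± 0.14) and Nkx6-2 (2.66 ± 0.15). Both were scarce in PFC, at a mean of 0.59 CPM (St18) and 0.54 CPM (Nkx6-2), which limits the precision of these values.

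A list of lipid enzymes and associated genes was divided, with 4 of 8 called higher in NAc, 3 lower and a median of 0.17. Fa2h, which makes the hydroxylated fatty acids of galactolipids, was higher by 2.14 ± 0.16, and the ceramide synthase Cers2 by 1.02 ± 0.07. The 3 lower in NAc were Cdk18 (-1.04 ± 0.24), Pex5l (-1.03 ± 0.10) and Smpd1 (-0.61 ± 0.04). Smpd1 is the lipid enzyme acid sphingomyelinase, at 42.1 to 50.4 CPM in PFC and 23.9 to 39.7 CPM in NAc, without overlap. Cdk18 and Pex5l are not lipid enzymes: Cdk18 is a cyclin-dependent kinase, and Pex5l binds peroxisomal targeting signals and neuronal channels.

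Earlier stages of the lineage showed smaller differences. Of 6 genes of newly formed oligodendrocytes, 5 were called higher in NAc and 1 was not called, with a median of 0.41. Tns3 was higher by 0.48 ± 0.05 and Gpr17 by 0.45 ± 0.15. With the mouse as a block, 3 of the 6 were called higher, and Gpr17, at 0.19 (adjusted p = 0.31), was not. Of 11 precursor genes, 3 were called higher, 2 lower and 6 were not called, with a median of 0.08. Lhfpl3 (1.19 ± 0.07) and the proteoglycan Vcan (0.61 ± 0.11) were higher in NAc, and Pcdh15 (-1.11 ± 0.07) and Xylt1 (-0.63 ± 0.11) lower. With the mouse as a block, 2 of the 11 precursor genes were called higher and 3 lower, with a median of 0.008. Whether mature and precursor lists differed from each other was not tested.

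Markers of other cells were compared in the same fit. Of 8 neuron genes 5 were called lower in NAc (median -0.53; summed level 689 to 2267 CPM in NAc and 1781 to 2584 CPM in PFC). Of 8 astrocyte genes 2 were lower (median -0.15), with Gfap at -1.82 ± 0.15. Of 8 endothelial and mural genes 2 were lower (median -0.10), and of 8 microglia genes 0 were called by edgeR or DESeq2 (median 0.07). Of these microglia genes, 4 had an unadjusted p under 0.05, and the same number an adjusted p under 0.05, at absolute log2 fold changes of at most 0.20, below the fold change a call needs. Of 6 Schwann cell genes only Egr2, which neurons also express, was in the table (-0.85 ± 0.27). The 5 called neuron genes were thus lower where the myelin genes were higher, and the other 3 were at -0.005 (Nefm), 0.17 (Rbfox3) and 0.46 (Nefh) on the log2 scale. The part of other cells in the result was not tested. With the mouse as a block in the 17 mice, 6 of the 8 neuron genes and 1 of the 8 microglia genes (C1qb) were called lower. In that fit Nefm was at -0.74 and called lower, while Rbfox3 (0.01) and Nefh (-0.55) were not called. The sign of Nefh thus depended on the fit. The block fit also leaves out the NAc libraries of mice without PFC, so block and choice of libraries cannot be told apart. From the fit of all libraries to the block fit, the median of 7 cortical glutamatergic neuron genes moved from -2.77 to -4.18.

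**Figure D2:**
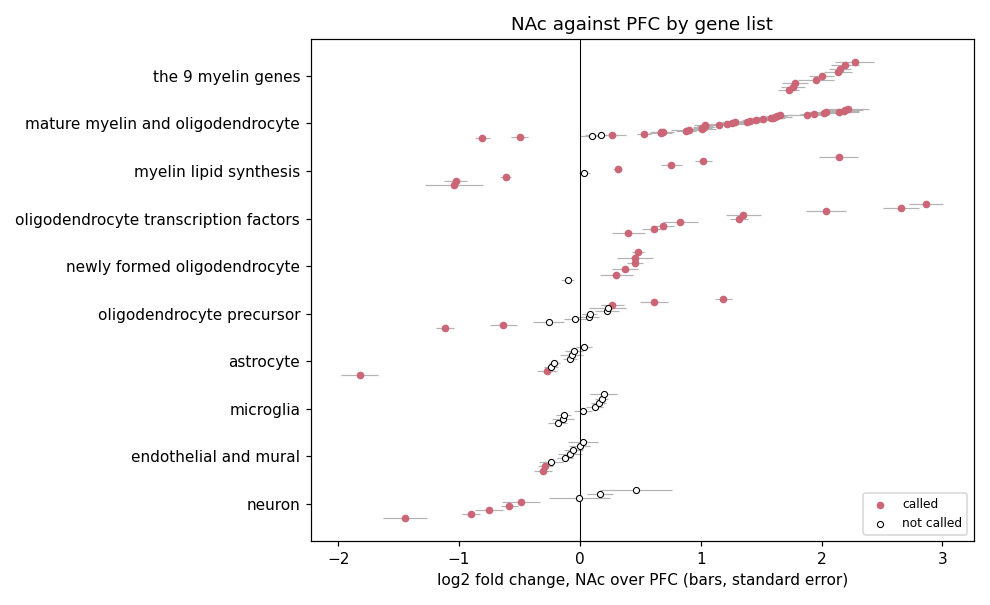
Log2 fold change of NAc over PFC for each gene of 10 lists, 1 row of points per list, with bars of 1 standard error, filled points for called genes and open points for genes not called. The 9 myelin genes lie between 1.73 and 2.27, and the precursor list has a median of 0.08.

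Across libraries of a region, the 9 genes moved together. Correlations were computed on log2 CPM for the 36 pairs of genes in each region and adjusted over the pairs of the 3 regions together, by permutation. In SCN (n = 19), all 36 pairs passed, with Pearson r from 0.78 (Mobp and Opalin) to 0.98 (Cnp and Mal) and a median of 0.94 (median Spearman rho 0.93). All 36 pairs passed in PFC too (n = 17), with r from 0.55 (Mog and Cnp) to 0.95 (Mbp and Mobp) and a median of 0.77 (rho 0.77). In NAc (n = 26), 28 of 36 passed, with r from 0.08 (Mobp and Opalin) to 0.92 (Mag and Cnp) and a median of 0.60 (rho 0.55). The median r over all pairs of genes in a region was 0.00. The share of all gene pairs that would pass was not counted. When the 2 farthest libraries of each pair were left out, median r over pairs was 0.93 in SCN, 0.72 in PFC and 0.60 in NAc, and the lowest was 0.76, 0.26 and 0.06.

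Mouse numbers leave a gap between J1021 and J1140, and the relations were repeated on either side of it, in a lower and an upper range that may or may not be batches. The median r was 0.96 in the lower range (n = 7) and 0.94 in the upper range (n = 12) in SCN, 0.74 (n = 7) and 0.86 (n = 10) in PFC, and 0.58 (n = 12) and 0.76 (n = 14) in NAc. These correlations share a library's scaling, and the genes differed in how closely they followed the others. In NAc, Cldn11 had the highest median r with the other 8 genes (0.67) and Mobp the lowest (0.41). Mbp had the highest in PFC (0.87) and in SCN (0.96), and Opalin the lowest in both (0.65 and 0.88).

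**Figure D3:**
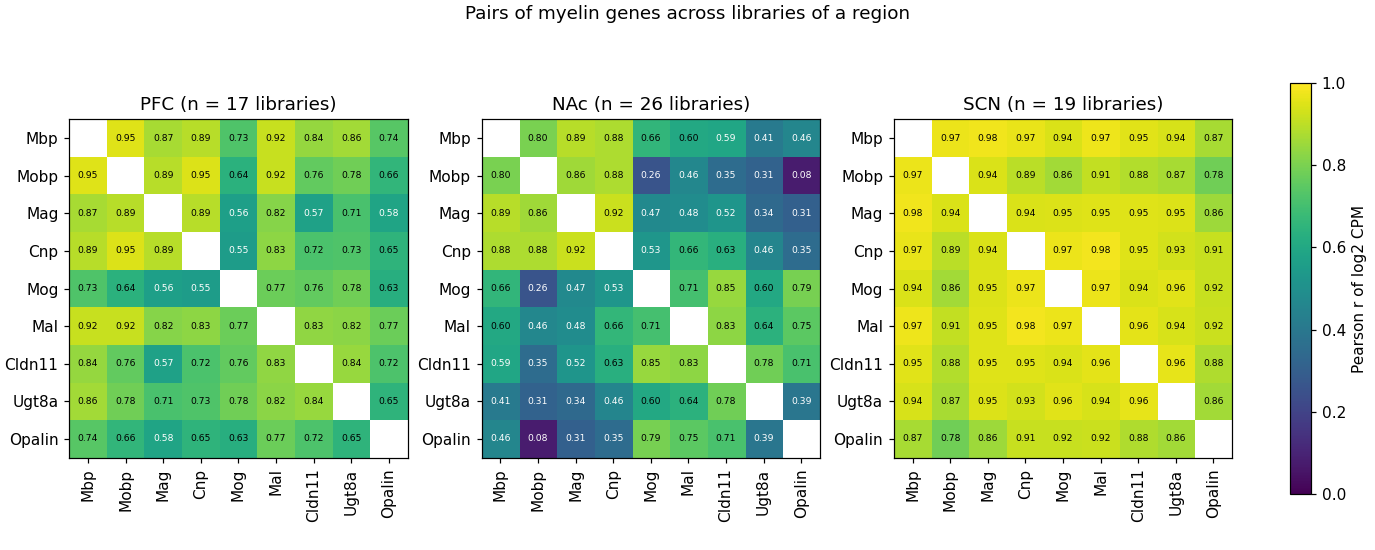
Pearson r of log2 CPM for each pair of the 9 genes across the libraries of PFC, NAc and SCN, with the color scale from 0 to 1 and the value printed in each cell. SCN cells are all at 0.78 or above, while NAc shows high values among Mbp, Mobp, Mag and Cnp and lower values between these and the other 5.

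The looser relation in NAc had a structure, which was noticed after the values were seen and is given as a description. Pairs among Mbp, Mobp, Mag and Cnp had a median r of 0.88 (0.80 to 0.92), pairs among Mog, Mal, Cldn11, Ugt8a and Opalin 0.73 (0.39 to 0.85), and pairs between these sets 0.46 (0.08 to 0.66). PFC had the same order with smaller gaps, at medians of 0.89 and 0.77 within the sets and 0.73 between them. In SCN the 3 medians were 0.96, 0.94 and 0.94. The order in NAc held on both sides of the gap in mouse numbers. Below the gap the NAc medians were 0.86, 0.64 and 0.41 (between the sets), and above it 0.89, 0.83 and 0.64. The ratio of Mobp to Opalin CPM ran from 5.74 (J1019) to 28.7 (J1140) across NAc libraries, and that of Mobp to Mog from 2.65 (J1019) to 11.8 (J1162).

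In NAc, Mobp and Mag were lower in libraries with a larger share of mitochondrial ribosomal RNA, and the call of Mag depended on the setting. Mobp had r = -0.79 with the percent of counts on mt-Rnr1 and mt-Rnr2 (n = 26; permutation adjusted p = 0.00054 over 54 relations; rho = -0.73, permutation p = 6.0e-05). Without the 2 farthest libraries r was -0.74, and within the ranges of mouse numbers it was -0.86 (lower) and -0.65 (upper). Mag had r = -0.63 (permutation adjusted p = 0.013; rho = -0.56, permutation p = 0.0035), with -0.45 without the 2 farthest libraries, -0.70 in the lower range and -0.33 in the upper. The relation of Mobp also passed by rank, without the 2 farthest libraries and in the lower range, but not in the upper range (permutation adjusted p = 0.65). That of Mag did not pass by rank (0.095, permutation adjusted p), without the 2 farthest libraries (0.35) or in the lower (0.21) or upper range (0.68). Cnp (r = -0.56) and Mbp (r = -0.54) did not pass (permutation adjusted p = 0.052 for each), and r of the other 5 genes was -0.05 to 0.26.

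The libraries at the ends show the size of this relation. NAc J1140 and J1162, with the lowest shares (39.0 and 40.4%), held 143 and 200 CPM of Mobp, and J965 and J1019, with the highest (69.3 and 68.7%), held 81.1 and 42.2 CPM. Opalin in the same 4 libraries was 4.99, 9.58, 9.79 and 7.35 CPM. With mitochondrial and ribosomal RNA genes removed before scaling, r of Mobp remained at -0.79. Of the 54 relations, 2 passed, both in NAc, and 0 of 27 relations with total count passed by permutation (0 of the 27 had an unadjusted p under 0.05).

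**Figure D4:**
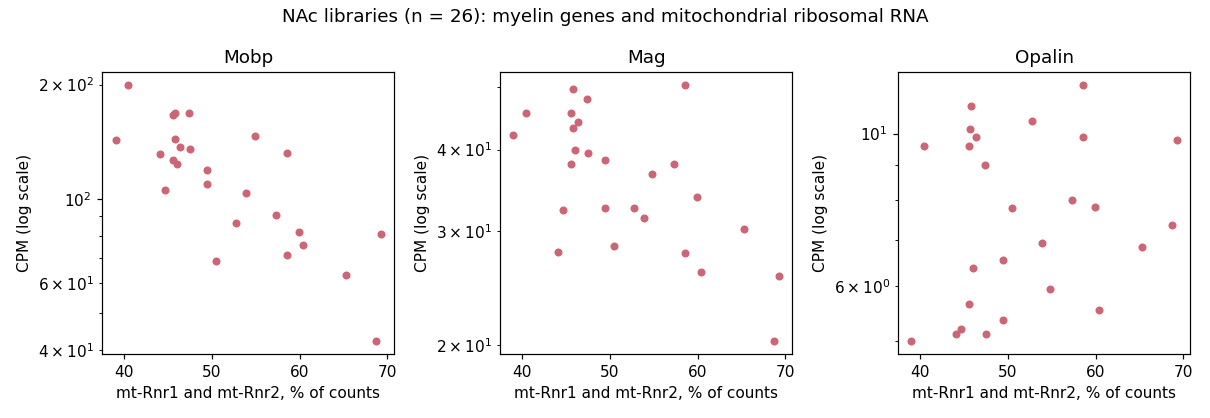
Level of Mobp, Mag and Opalin in CPM (log axis) against the percent of counts on mt-Rnr1 and mt-Rnr2 in the 26 NAc libraries, with 1 point per library. Mobp (r = -0.79) and Mag (r = -0.63) fall from left to right, and Opalin (r = 0.19) does not.

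A mouse with more myelin RNA in 1 region did not detectably have more in another. Of 27 relations between 2 regions of the same mouse, 0 passed after adjustment by permutation, and 5 had an unadjusted p under 0.05. Between NAc and PFC (n = 17), r was -0.005 (Mog) to 0.25 (Ugt8a). NAc and SCN (n = 19) gave r from -0.15 (Cnp) to 0.16 (Opalin). PFC and SCN (n = 12) gave a negative r for all 9 genes, from -0.44 (Mag) to -0.77 (Cldn11; permutation p = 0.0029, adjusted p = 0.079; rho = -0.66), and the 5 relations with an unadjusted p under 0.05 were among these.

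PFC J1178 had the highest PFC sum of the 9 genes (333 CPM) and the lowest SCN sum of these 12 mice (435 CPM), and J1141 the lowest PFC sum (120 CPM) and an SCN sum of 1639 CPM. Without mouse J1165, 0 of the 27 relations passed, with r from -0.77 to 0.22. Without the 2 farthest mice, r between PFC and SCN was -0.57 to -0.01. For Cldn11, r was -0.79 in the 8 mice of the upper range, and the lower range held 4 mice, too few for a value. The 9 genes are not independent here, since their levels were correlated within each region.

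The spread between libraries was widest in SCN. The median SD of log2 CPM over the 9 genes was 0.80 in SCN, 0.37 in PFC and 0.30 in NAc, beside 0.29, 0.19 and 0.26 over all genes. SCN J1017 was lowest for 6 genes and SCN J1178 for 3, and SCN J1165 was highest for 5. Summed, the 9 reached 348 CPM in SCN J1017 and 435 CPM in SCN J1178, against 1878 CPM in J1177, 2011 CPM in J1021 and 2328 CPM in J1165. Without J1165 (n = 18), the sum spanned 5.78-fold and the median SD was 0.77. The SCN maximum was then 964 CPM for Mbp (5.99-fold over the lowest), 306 CPM for Mobp, 82.2 CPM for Mag, 253 CPM for Cnp and 210.2 CPM for Mal, and 36 of 36 pairs still passed, with a median r of 0.94.

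Glial genes outside the 9 moved with them in SCN. The median r of a gene with the 9 had a list median of 0.87 over 40 mature myelin genes and 0.71 over 10 lipid genes. It was 0.66 over 11 genes of the transcription factor list, where Carns1, an enzyme, was lowest at 0.19. The 6 newly formed oligodendrocyte genes had a list median of 0.38 and the 12 precursor genes 0.32. The list median was 0.58 over 8 astrocyte genes, with Gja1, the astrocyte connexin 43, highest at 0.81. Microglia (0.50 over 7 genes) and endothelial and mural genes (0.36 over 8) were also positive, while neuron genes (-0.03 over 8), SCN neuron genes (0.04 over 9) and ependymal genes (-0.17 over 9) were not. Gfap was 82.1 CPM in SCN J1017, 128 CPM in J1178 and 490 CPM in J1021, but 167 CPM in J1165, the library with the highest sum of the 9. Without J1165 the list medians were 0.85 (mature myelin), 0.68 (lipid), 0.61 (transcription factors), 0.30 (newly formed), 0.25 (precursor), 0.56 (astrocyte), 0.47 (microglia), 0.29 (endothelial and mural), -0.18 (neuron), 0.09 (SCN neuron) and -0.14 (ependymal). The part of these other cells in the SCN spread was not tested.

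Outside SCN, mature myelin genes had list medians of 0.51 in PFC and 0.50 in NAc, and transcription factors 0.21 and 0.24. Astrocyte (0.06 and 0.03) and precursor genes (-0.01 and 0.08) were near the all-gene medians of 0.005 and -0.001. Microglia stood at -0.10 in PFC and 0.24 in NAc. Striatal neuron genes had a list median of 0.34 in PFC, above that of the transcription factors there, with all 8 genes positive (0.19 to 0.51), and of 0.26 in NAc. Neuron genes stood at 0.11 in PFC and -0.24 in NAc, and cortical neuron genes at -0.09 and -0.21. The part of these markers in the myelin gene levels was not tested. These values are correlations across 17 to 26 libraries that share scaling and punch, and no test was made.

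**Figure D5:**
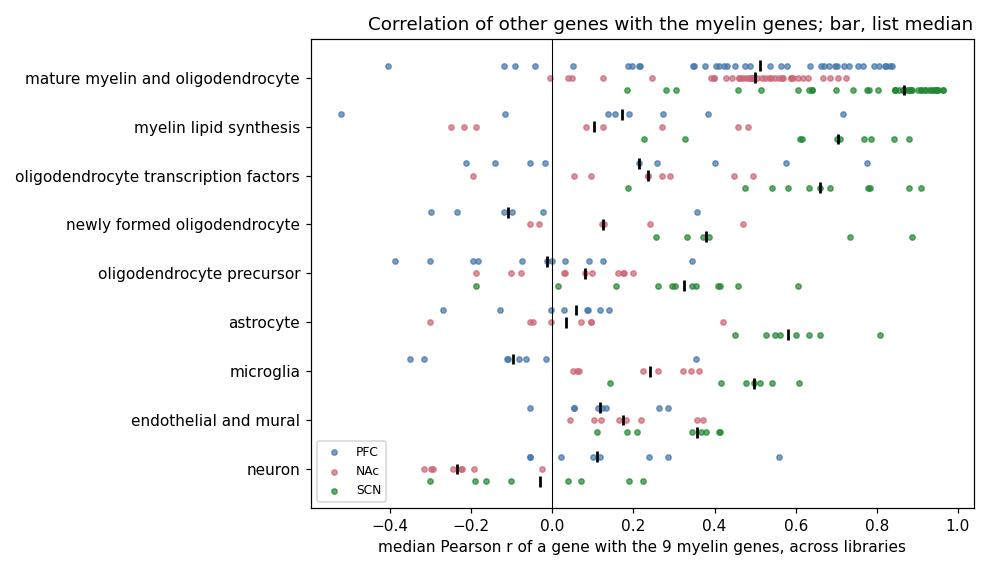
Median Pearson r of each listed gene with the 9 myelin genes across the libraries of PFC, NAc and SCN, 1 point per gene and region, with a bar at the list median. The mature myelin list has medians of 0.51, 0.50 and 0.87, and in SCN the astrocyte list stands at 0.58.

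The genes whose pattern was most like that of the 9 were ranked by the lowest, over the 3 regions, of their median r with the 9, among 11088 genes. Gpr37, an orphan receptor of oligodendrocytes, led with 0.82 in PFC, 0.72 in NAc and 0.96 in SCN. Lpar1, a receptor for lysophosphatidic acid, followed with 0.75, 0.70 and 0.88, then Evi2a (0.70, 0.67 and 0.88) and the tetraspanin Tspan2 (0.81, 0.63 and 0.91). Trim59, Tmem63a (a mechanosensitive channel), Plekhb1, Ppp1r14a, Gjc3 (connexin 29) and the small heat shock protein Cryab completed the first 10, with a lowest r of 0.59 to 0.63. Of these 10, 7 were on the mature myelin list, and all 10 were called higher in NAc than in PFC, by 1.02 (Cryab) to 1.90 (Ppp1r14a) on the log2 scale and in 17 of 17 mice.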

How the data were processed

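Total RNA of PFC, NAc and SCN punches was sequenced by the authors from low-input libraries. Reads were checked with FastQC 0.11.7, aligned to GRCm38 with HISAT2, assigned to genes by HTSeq (union mode) and filtered for low expression, with Y-linked genes removed. The deposited values are raw counts per gene, with NAc and PFC in 1 table (11569 genes) and SCN in another (12047 genes). Strand setting and annotation release were not given in the sources used here. Positions and exon lengths are from GENCODE M21.

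The 9 genes, the gene lists and the rules for naming genes were chosen with earlier results of these data known. Genes named from a list are the 2 called genes with the largest difference in each direction, plus markers and the 10 most similar genes; Gja1, Xist, Smpd1, C1qb, Nefm, Rbfox3 and Nefh were chosen after their values were seen. Some genes that the rule names are not reported here. NAc and PFC were compared with edgeR 4.0.16 in R 4.3.3 (TMM, quasi-likelihood test, filterByExpr, which removed no gene), with Benjamini-Hochberg adjustment over all genes. SE is the log2 fold change divided by the square root of F. Counts were given as CPM after TMM, and correlations used log2 CPM with a prior count of 2 and two-sided permutation tests of 100000 resamples (smallest p 1e-05). DESeq2 1.42.0 and other settings were alternatives. In simulated counts of the NAc and PFC comparison (11569 genes, 200 changed), edgeR recovered 198 genes and called 6 others. The simulated libraries were independent, and far fewer genes changed than the 5254 called in the data. The simulation therefore does not show how scaling or pairing affects the calls made here.

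Each region was a group and the mouse number the replicate. NAc and PFC libraries of 17 mice are paired, each pair being 1 animal, and the main fit had no term for the mouse. The correlation of their deviations ran from -0.449 to 0.272 (median 0.0061) and was over 0.1 in 7 mice. No library was a copy of another of its region (lowest chi-square per gene 13.1). Calculations outside R used Python 3.11.15, numpy 2.4.6 and pandas 2.3.3.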

Additional observations from a re-analysis of the deposited data

How the results depend on the processing

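All 9 genes were called higher in NAc under each alternative tried (DESeq2, its size factors, removal of mitochondrial and ribosomal RNA genes, no filter, each range of mouse numbers, the mouse as a block, and leaving out each library), except that Opalin was removed by a filter of at least 10 CPM in at least 17 libraries. That filter left 3232 genes called, against 5254, because fewer genes were tested. Log2 fold changes ran from 1.58 to 1.93 for Mbp and from 2.1 to 2.40 for Mobp. With a replicate block in the 17 paired mice 5681 genes were called, and 5743 without it in the same mice. Against the main fit of all libraries, 8 of 132 listed genes changed call in the fit with the block (5 lost, 3 gained). Of the called genes, 0 turned direction. The main fit also holds NAc libraries of mice without PFC, so these changes cannot be laid to the block alone. The calls of the 9 genes and of the 10 most similar genes did not change.

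In the lower range of mouse numbers, 11 of 36 pairs passed in PFC and 12 of 36 in NAc, with fewer libraries. Of the 54 relations with depth and mitochondrial ribosomal RNA, 2 passed; 4 passed without mitochondrial and ribosomal RNA genes, 1 by Spearman rank correlation, 1 without the 2 farthest libraries, 1 in the lower range and 0 in the upper range. The cause was not tested. Leaving out SCN J1165, and the block for each listed gene, were chosen after seeing the data. Opalin and Mog in PFC have the fewest counts, which limits their precision.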
